A study of Mus musculus with 4 samples.

Results

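The receptor genes Gfra1 and Ret, the GDNF-responsive factors Etv5, Bcl6b, Lhx1 and Egr4, and the regulators Nanos2, Id4, Zbtb16 and Neurog3, 10 genes of the GDNF pathway and the spermatogonial stem cell state, were followed in cultured neonatal mouse testes. All probe sets that the array annotation assigns to 1 of these symbols alone were taken. They number 20 of the 45101 probe sets in the table and cover 9 of the 10 genes, 9 of the 18194 genes with such a probe set. No probe set carries Nanos2 as its single symbol in this annotation, and Nanos2 was not analysed here. Whole testes of 129 strain mice at 2 dpp (days post partum) were held in organ culture for 24 h in medium with 10% fetal bovine serum. The vehicle group (2 arrays) received dimethyl sulfoxide, and the treated group (2 arrays) received WIN 18,446 at 1 µM, an inhibitor of the enzymes that make retinoic acid. The labels give no mutation or transgene, and do not say whether arrays of a group came from separate animals, pools or cultures, and the p-values below reflect no more than the spread among these 4 arrays, technical or otherwise.

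GDNF is a growth factor that the somatic cells of the testis secrete. It binds the co-receptor GFRα1, which is anchored to the membrane of undifferentiated germ cells, and the complex activates the receptor tyrosine kinase RET. In cultured spermatogonial stem cells the signal raises a set of transcription factor genes that includes Etv5, Bcl6b and Lhx1, and retinoic acid acts in the opposite direction by starting differentiation. In the newborn testis the germ cells are prospermatogonia, the cells from which the stem cells arise.

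Values are log2 levels as deposited, and a difference is WIN 18,446 minus vehicle. The 20895 probe sets whose 4 arrays averaged 5 or more were tested with limma. Those with an adjusted p under 0.05 are said to be called, the higher ones to have risen and the lower ones to have fallen. Column medians lay between 3.72 and 3.83, and 46.4% to 46.6% of probe sets reached 5 on an array. Precision is limited by the number of arrays, and the 95% interval of a difference reached a median of 0.37 log2 units to either side over the 20895 probe sets tested. Stra8, the retinoic acid target of germ cells, read 7.02 and 6.42 with vehicle and 2.03 and 2.04 with WIN 18,446, below the highest bacterial control probe set (2.22), which has no target in mouse RNA.

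Of the members, 7, with 11 probe sets, passed the level filter, and none of these 11 was called by limma, against 5.18% of all probe sets tested (2.27% higher, 2.91% lower). At an unadjusted p under 0.05 there was 1 of 11, for Zbtb16, against 22.0% of all. The groups did not overlap in 4 of 11 (2 higher, 2 lower), against 53.1% of all (23.8% higher, 29.3% lower). These shares lay below those of all probe sets tested and show nothing particular to the members. Egr4 and Neurog3 stood at the background on all arrays. Their 3 probe sets, with 1 of Gfra1, were at or below 2.22 on all 4 arrays, and a further 5 lay under the filter with higher readings.

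**Figure D1:**
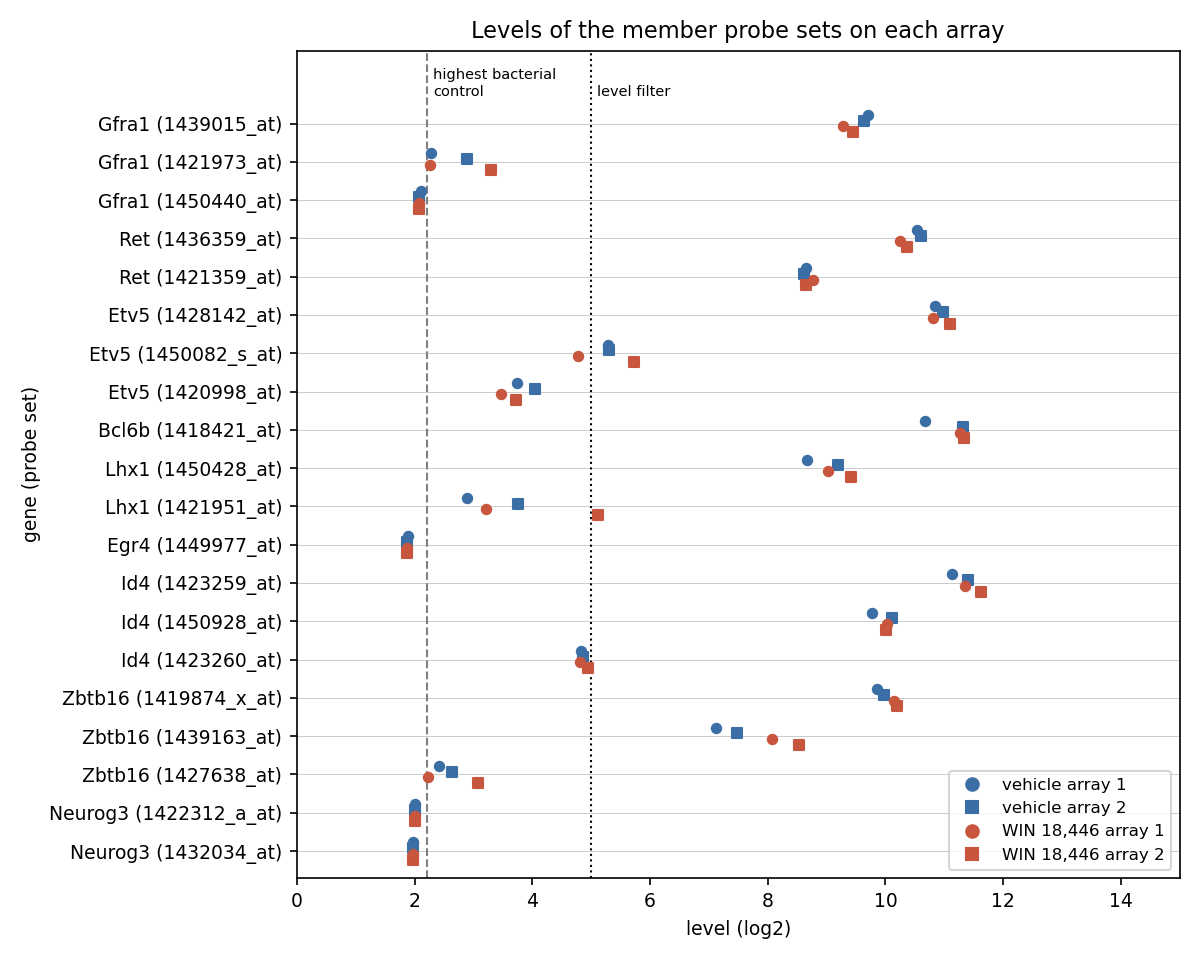
Log2 level (x axis) of the 20 member probe sets (y axis) on each of the 4 arrays, with circles for array 1 and squares for array 2 of each group. The dashed line is the highest bacterial control (2.22) and the dotted line the level filter of 5. The 2 probe sets of Neurog3 and that of Egr4 lie left of the dashed line on every array, while 11 probe sets of 7 genes pass the filter.

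Upstream sequence was at hand for 7 of the 10 members, with 8 start sites, from RefSeq (build GRCm38.p6). The 250 bases before each start were searched on both strands for AGGTCA, the half-site that retinoic acid receptors bind, for its direct repeat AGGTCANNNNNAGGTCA, for CCGGAA, a form of the ETS site that factors such as Etv5 bind, and for CAGCTG, a form of the E-box that helix-loop-helix factors such as Neurog3 bind and that Id4 keeps its partners from. None of the 8 windows held AGGTCA or the repeat, which occur in 14.0% and 0.009% of all 32851 windows. CCGGAA was in the windows of Gfra1 and Neurog3 (12.0% of all windows), and CAGCTG in those of Gfra1, Neurog3 and the first start of Etv5 (13.0%). These are the 3 windows shown, since they hold the matches, with each match in capitals, 5′ to 3′. A match is a string of letters and no evidence of binding.
Gfra1 (chr19:58455399-58455648, minus strand): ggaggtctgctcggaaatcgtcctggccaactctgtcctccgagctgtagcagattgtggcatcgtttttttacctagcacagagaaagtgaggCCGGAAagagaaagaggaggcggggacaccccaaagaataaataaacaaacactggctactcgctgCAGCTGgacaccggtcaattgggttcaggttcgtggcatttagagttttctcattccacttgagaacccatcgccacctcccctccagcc
Etv5 (chr16:22439571-22439820, minus strand): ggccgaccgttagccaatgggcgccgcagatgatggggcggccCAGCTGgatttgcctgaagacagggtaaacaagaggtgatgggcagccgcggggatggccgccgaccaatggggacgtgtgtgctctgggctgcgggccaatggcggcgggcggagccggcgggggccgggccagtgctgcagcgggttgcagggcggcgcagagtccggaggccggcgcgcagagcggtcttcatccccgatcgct
Neurog3 (chr10:62132840-62133089, plus strand): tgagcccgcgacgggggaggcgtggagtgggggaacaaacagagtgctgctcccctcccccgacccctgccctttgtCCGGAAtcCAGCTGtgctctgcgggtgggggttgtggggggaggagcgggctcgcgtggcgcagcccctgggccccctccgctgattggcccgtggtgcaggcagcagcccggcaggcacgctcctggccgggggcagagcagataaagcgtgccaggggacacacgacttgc
The windows of Gfra1 and Neurog3 hold the same pair of motifs, while Gfra1 was read well above the background on its brightest probe set and Neurog3 was at the background throughout. The CCGGAA and CAGCTG matches do not overlap each other in any window shown.

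Both receptor genes read slightly lower with WIN 18,446 on their brightest probe sets, by less than the test could separate from the spread. Gfra1, the GDNF-binding co-receptor, read 9.70 and 9.63 with vehicle and 9.28 and 9.45 with WIN 18,446 (probe set 1439015_at). Both treated arrays lay below both vehicle arrays. The means were 9.67 ± 0.05 and 9.37 ± 0.12 (SD, n = 2), a difference of -0.30 (SE 0.14, 95% interval -0.66 to 0.06, adjusted p = 0.306), or 0.812 times the vehicle level. The interval excludes a fall below 0.631 times that level. The other probe sets of Gfra1 carried little signal: 1421973_at read 2.27 and 2.89 with vehicle and 2.26 and 3.30 with WIN 18,446, with overlapping groups, and 1450440_at read 2.07 to 2.10 throughout.

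Ret, the signalling kinase of the pair, gave different pictures on its 2 tested probe sets. On 1436359_at it read 10.54 and 10.60 with vehicle and 10.24 and 10.37 with WIN 18,446, again with no overlap. The difference was -0.26 (SE 0.12, 95% interval -0.55 to 0.03, adjusted p = 0.272). On 1421359_at it read 8.65 and 8.62 with vehicle and 8.77 and 8.65 with WIN 18,446. Here the groups overlapped, with a difference of 0.07 (SE 0.16, 95% interval -0.33 to 0.47, adjusted p = 0.836). The lower reading of Ret thus rests on 1 of its 2 tested probe sets, and the difference between the probe sets was not tested. With any 1 array left out, the difference stayed negative for Gfra1 (-0.39 to -0.21) and for Ret on 1436359_at (-0.32 to -0.20).

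**Figure D2:**
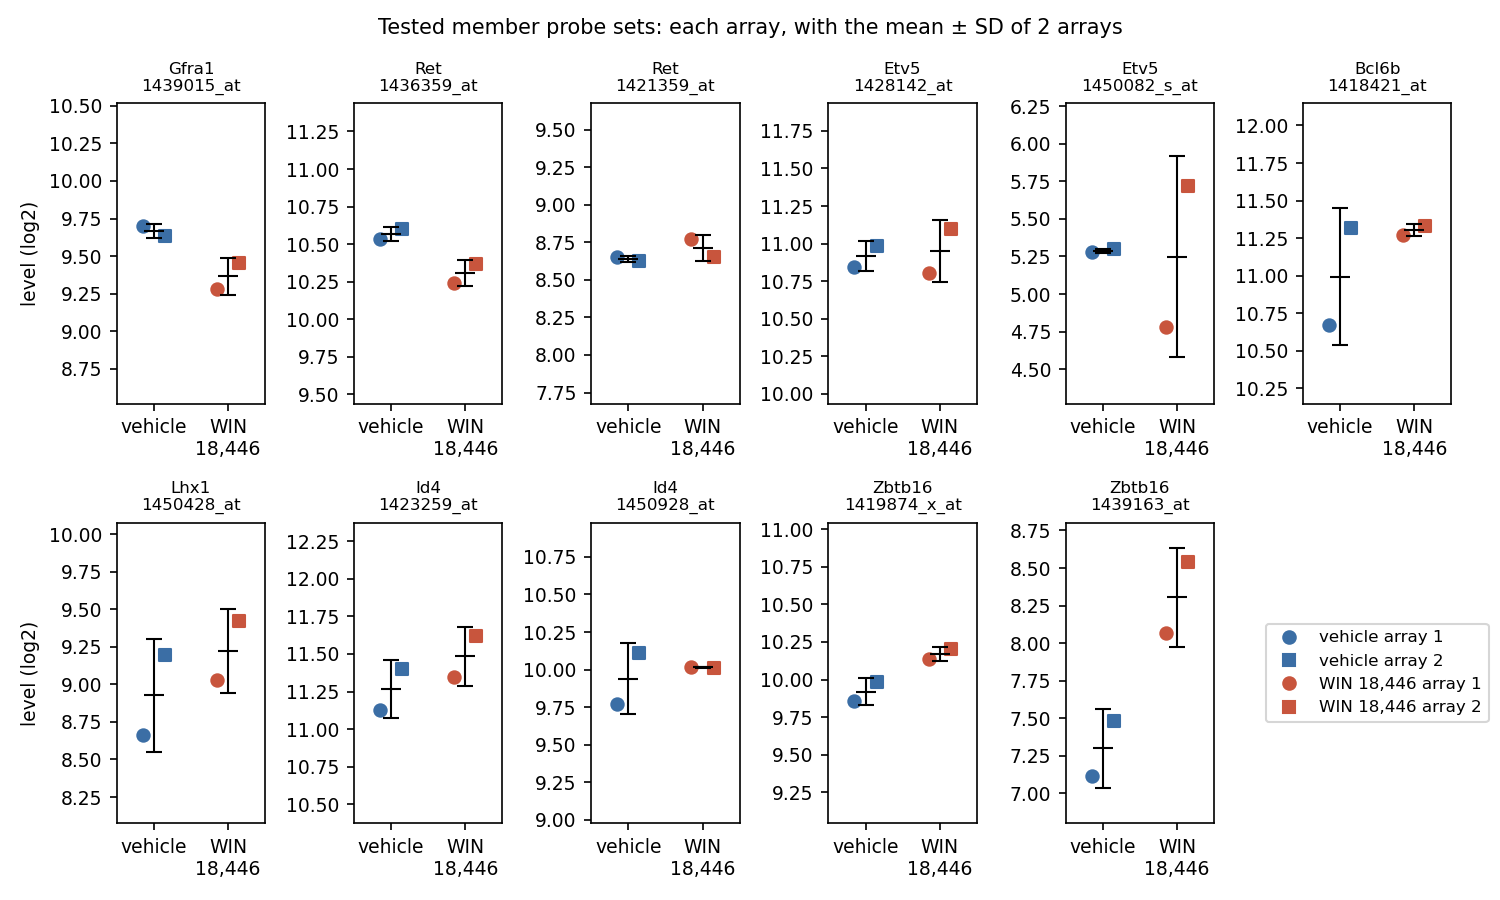
Log2 level (y axis, 2 log2 units high in every panel) of the 11 tested member probe sets by group, with each array as a point and the mean ± SD of 2 arrays as a bar. Gfra1 and Ret (1436359_at) lie lower on both treated arrays and the 2 Zbtb16 probe sets higher, while the groups overlap in the other 7 panels.

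Of the GDNF-responsive transcription factor genes among the members, none of those tested differed beyond the spread between arrays. On their brightest probe sets Etv5, Bcl6b and Lhx1 all had positive differences. Etv5, an ETS factor needed for stem cell maintenance, read 10.84 and 10.99 with vehicle and 10.81 and 11.10 with WIN 18,446 on 1428142_at, so the vehicle values lay within the range of the treated ones. Its difference was 0.04 (SE 0.14, 95% interval -0.31 to 0.39, adjusted p = 0.908), with a sign that flipped to -0.0011 when array medians were set equal. The dimmer 1450082_s_at, whose suffix marks probes shared between transcripts, read 5.28 and 5.30 with vehicle against 4.78 and 5.72 with WIN 18,446. The treated arrays lay on either side of the vehicle arrays, and the difference was -0.04 (SE 0.37, adjusted p = 0.969), flipping to 0.01 after a second quantile normalization. The third probe set, 1420998_at, read 3.74 and 4.04 with vehicle and 3.46 and 3.72 with WIN 18,446, under the filter.

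Bcl6b, a transcriptional repressor, was set apart by 1 array. It read 10.67 and 11.32 with vehicle and 11.27 and 11.33 with WIN 18,446, so that vehicle array 1 was the low value and the other arrays lay close together. The difference of 0.31 (SE 0.22, 95% interval -0.25 to 0.87, adjusted p = 0.484) became -0.01 without vehicle array 1 and 0.63 without vehicle array 2. Lhx1, a LIM homeobox factor, read 8.66 and 9.19 with vehicle and 9.03 and 9.42 with WIN 18,446 on 1450428_at. The groups overlapped, and the difference of 0.30 (SE 0.25, 95% interval -0.34 to 0.93, adjusted p = 0.552) became 0.03 without vehicle array 1 and 0.56 without vehicle array 2. Its second probe set, 1421951_at, read 2.90 and 3.76 with vehicle and 3.21 and 5.12 with WIN 18,446, with the spread inside the treated group wider than the distance between the groups. Egr4, an early growth response factor, read 1.88 on all 4 arrays and has no measurable difference here.

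Zbtb16 had the largest difference among the tested members. It encodes PLZF, a zinc finger repressor that keeps spermatogonia undifferentiated. On 1439163_at it read 7.11 and 7.49 with vehicle and 8.07 and 8.54 with WIN 18,446, and both treated arrays lay above both vehicle arrays. The means were 7.30 ± 0.26 and 8.31 ± 0.33 (SD, n = 2), a difference of 1.01 (SE 0.25, 95% interval 0.36 to 1.65), or 2.01-fold (1.28 to 3.14). The adjusted p of 0.0968 missed the threshold, and over the alternatives it ran from 0.0579 to 0.465. With any 1 array left out the difference stayed between 0.77 and 1.24. The brighter 1419874_x_at, whose suffix marks probes that can also bind other transcripts, read 9.85 and 9.98 with vehicle and 10.14 and 10.20 with WIN 18,446. Its groups did not overlap either, at a smaller difference of 0.25 (SE 0.13, adjusted p = 0.322). The third, 1427638_at, read 2.41 and 2.63 with vehicle and 2.23 and 3.07 with WIN 18,446, with overlapping groups under the filter.

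Id4, a helix-loop-helix protein that blocks DNA binding by its partners and marks stem cells, read 11.13 and 11.40 with vehicle and 11.35 and 11.62 with WIN 18,446 on 1423259_at. The groups overlapped, with a difference of 0.22 (SE 0.15, 95% interval -0.16 to 0.60, adjusted p = 0.465). It became 0.08 without vehicle array 1 or without treated array 2, and 0.36 without vehicle array 2 or without treated array 1. On 1450928_at it read 9.77 and 10.11 with vehicle and 10.02 and 10.01 with WIN 18,446, a difference of 0.08 (SE 0.16, adjusted p = 0.826) that became -0.09 without vehicle array 1. The third probe set of Id4, 1423260_at, lay just under the filter at 4.81 to 4.95, with overlapping groups. Neurog3, a helix-loop-helix factor of spermatogonia on the way to differentiation, read 2.00 to 2.01 on 1422312_a_at and 1.97 to 1.98 on 1432034_at, so that no level of it was seen with or without the inhibitor.

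**Figure D3:**
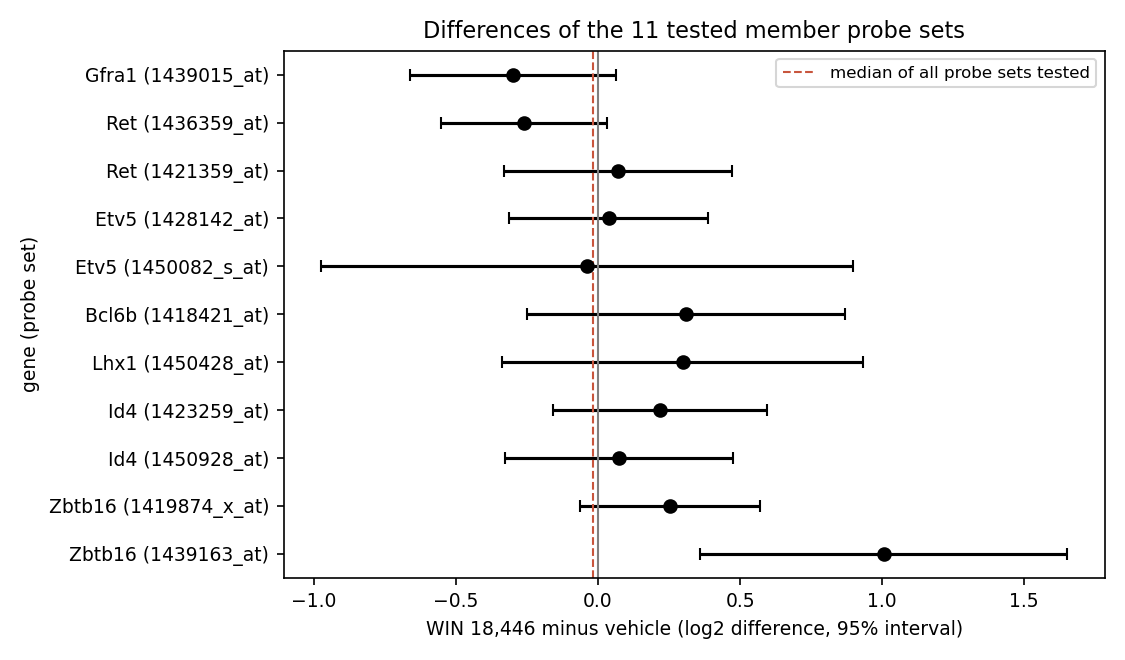
Difference in log2 level, WIN 18,446 minus vehicle (x axis), for the 11 tested member probe sets (y axis), with 95% intervals from limma and the median of all 20895 probe sets tested as a dashed line (-0.02). The interval of Zbtb16 on 1439163_at, from 0.36 to 1.65, lies above 0, and the other 10 include 0.

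Of the 11 intervals, 10 lay within 1 log2 unit of 0 on both sides, so that for these probe sets a 2-fold change in either direction was outside the 95% interval. The exception was Zbtb16 on 1439163_at. Differences were positive in 8 and negative in 3 of the 11, with a median of 0.08 against -0.02 over all probe sets tested. With 1 probe set per gene, as in the lists below, 5 of 7 were positive, with a median of 0.22. Over all genes tested 4957 of 10970 were positive, with a median of -0.02. Vehicle array 1 was the lowest of the 4 arrays in 6 of the 11 (22.1% of all probe sets tested). Vehicle array 2 lay above vehicle array 1 in 9 of 11 (47.5% of all), and treated array 2 above treated array 1 in 9 of 11 (56.8% of all). Several of these probe sets share a gene and are not independent.

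The germ cells themselves were represented on all arrays. Of 10 general germ cell markers 8 were tested and none was called in limma (1 at an unadjusted p under 0.05), with a median difference of 0.09. Their mean level was 10.97 and 10.87 with vehicle and 11.02 and 11.08 with WIN 18,446. The largest differences were those of Dnd1, an RNA-binding protein of germ cells (0.43, adjusted p = 0.289), and Dazl, another (0.29, adjusted p = 0.113). Dppa3 was at background, and Tdrd1 read 2.19 to 2.30. The brightest tested probe set of each member was also set against the mean of the 8 tested markers on its array. That scale was chosen after the values were seen and does not show which cells the members' RNA came from. On it the difference of Gfra1 was -0.43, that of Ret on 1436359_at -0.39 and that of Zbtb16 on 1419874_x_at 0.12. For Etv5 it was -0.09, for Bcl6b 0.18, for Lhx1 0.17 and for Id4 0.09. The other probe sets of these genes were not put on this scale. In whole tissue, fewer cells of a type and less RNA per cell cannot be told apart.

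Some markers of the somatic cells fell in the same samples. Of 10 Sertoli markers 4 fell (Sox9, Wt1, Dhh and Cldn11, from -1.25 to -0.43), while 6 were not called and 4 of those were positive, among them Amh with the largest difference of the list (1.25, adjusted p = 0.0575). The list had a mean of 13.07 and 13.06 with vehicle and 12.83 and 12.76 with WIN 18,446. Of 5 tested endothelial markers 1 fell, Robo4 (-1.01), and the list mean went from 8.76 and 8.89 to 8.09 and 7.99. Tie1 of that list read 5.16 and 4.97 with vehicle and 2.43 and 2.32 with WIN 18,446. Its mean lay under the filter, so it is in neither the count nor the list mean. Of 4 tested peritubular myoid markers 1 fell, the filament gene Des (-1.47), with list means of 10.97 and 11.14 against 10.56 and 10.37. None of 4 Leydig markers was called, with Star at -0.69 and Cyp11a1 at -0.32 and list means of 12.15 and 11.77 against 11.74 and 11.46. None of 2 tested macrophage markers was called (C1qb -0.19, Mrc1 0.10), with list means of 6.87 and 7.29 against 6.54 and 7.52 and C1qa at background. The part of these cells in the members' values was not tested. Ret and Lhx1 are also known from the nephric duct, whose markers Cdh16 and Gata3 were at background, with Pax8 at 3.87 on vehicle array 2 and 2.16 to 2.31 elsewhere. Emx2 of the same list read 3.93 and 4.43 with vehicle and 3.11 and 3.07 with WIN 18,446, under the filter. Krt8 and Epcam of that list were well above the filter, at 7.73 to 8.04 and 10.26 to 10.50 over the arrays. Both were tested and not called (differences 0.15 and 0.12). Of the erythroid list the beta-globin Hbb-b2 alone was tested (-1.42, adjusted p = 0.0618), with Hba-a1 and Alas2 at background.

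Among ligands and receptors of the GDNF family, none of 5 tested genes was called by limma, and 1 had an unadjusted p under 0.05. That gene was Gfra2, the co-receptor for neurturin, which read 9.03 and 9.48 with vehicle and 9.76 and 10.09 with WIN 18,446, a difference of 0.67 (SE 0.21, adjusted p = 0.159). Gdnf itself, added after the values were seen because it is the ligand of the members, read 9.53 and 9.73 with vehicle and 9.52 and 9.65 with WIN 18,446, with overlapping groups (difference -0.05, 95% interval -0.42 to 0.33, adjusted p = 0.888). The ligands Nrtn, Artn and Pspn and the co-receptor Gfra3 were at background, and Gfra4 reached 2.27 on vehicle array 2 only. The median difference was -0.05, against -0.02 over all 10970 genes tested.

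Of 19 tested genes of the signalling below RET, 1 rose and 18 were not called, with a median of -0.06. In limma 4 had an unadjusted p under 0.05, and differences were positive in 7 and negative in 12. The largest was that of Src (-1.28, adjusted p = 0.0923), which was not called. Map2k1, the kinase that activates ERK, rose from 12.54 and 12.47 to 13.10 and 13.12 (difference 0.61, SE 0.07, adjusted p = 0.0190). Among 7 other genes that respond to GDNF, Egr2, an early growth response factor related to Egr4, and Ccnd2, a cyclin of the entry into the cell cycle, rose, by 0.86 and 0.52 (adjusted p = 0.0376 and 0.0389), and 5 were not called. The largest difference of that list was that of Tspan8 (-1.12, adjusted p = 0.123), which was not called. Differences were positive in 4 and negative in 3, with a median of 0.20.

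Other genes of undifferentiated spermatogonia went both ways. Of 15 tested, 1 rose, 2 fell and 12 were not called, with a median of 0.04 that became -0.0022 with equal array medians. Sox3, a transcription factor of undifferentiated spermatogonia, read 7.40 and 7.48 with vehicle and 8.52 and 8.55 with WIN 18,446 (difference 1.09, SE 0.17, adjusted p = 0.0364). Both pairs of arrays were close within the group. Erbb3, a receptor kinase of the EGF receptor family that Schwann cells also carry, read 11.15 and 10.55 with vehicle and 8.65 and 8.67 with WIN 18,446, 4.57-fold lower (difference -2.19, SE 0.22, adjusted p = 0.0163). Sox10, a defining factor of Schwann and other glial cells that was added after the values were seen, read 4.75 and 3.98 with vehicle and 2.80 and 2.73 with WIN 18,446, and its part in the Erbb3 result was not tested. Of the rest of the nerve and glia list Th and Dbh were at background and Tubb3 differed by 0.13 (adjusted p = 0.46). Sall4, a zinc finger factor of germ cells, fell too (difference -0.60, adjusted p = 0.0157).

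Of 10 tested close relatives of the members 1 rose, Egr2, the same call as among the genes that respond to GDNF. The other 9 were not called, and the list had a median of 0.33 and 8 positive differences. Of 5 tested genes of spermatogonial differentiation 1 rose, Ccnd2, again the call already counted among the genes that respond to GDNF. The other 4 were not called, among them Sohlh2 with the largest difference of the tested genes (1.03, adjusted p = 0.0614 in limma). The list had a median of 0.38 over its tested genes. Stra8 is on this list too and is not in that median, since its low readings with WIN 18,446 took its mean under the filter. Kit, the receptor that differentiating spermatogonia carry, stayed under the filter at 3.28 and 3.47 with vehicle and 2.23 and 2.70 with WIN 18,446. Sohlh1 was under it too, at 2.49 and 2.32 with vehicle and 2.26 and 2.25 with WIN 18,446. Over all genes tested, 322 of 10970 rose and 380 fell. Each call named here was lost when either vehicle array was left out, since limma then called 0 of the 20895 probe sets (unadjusted p under 0.05 in 2455 and 2820, in that order of the arrays).

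**Figure D4:**
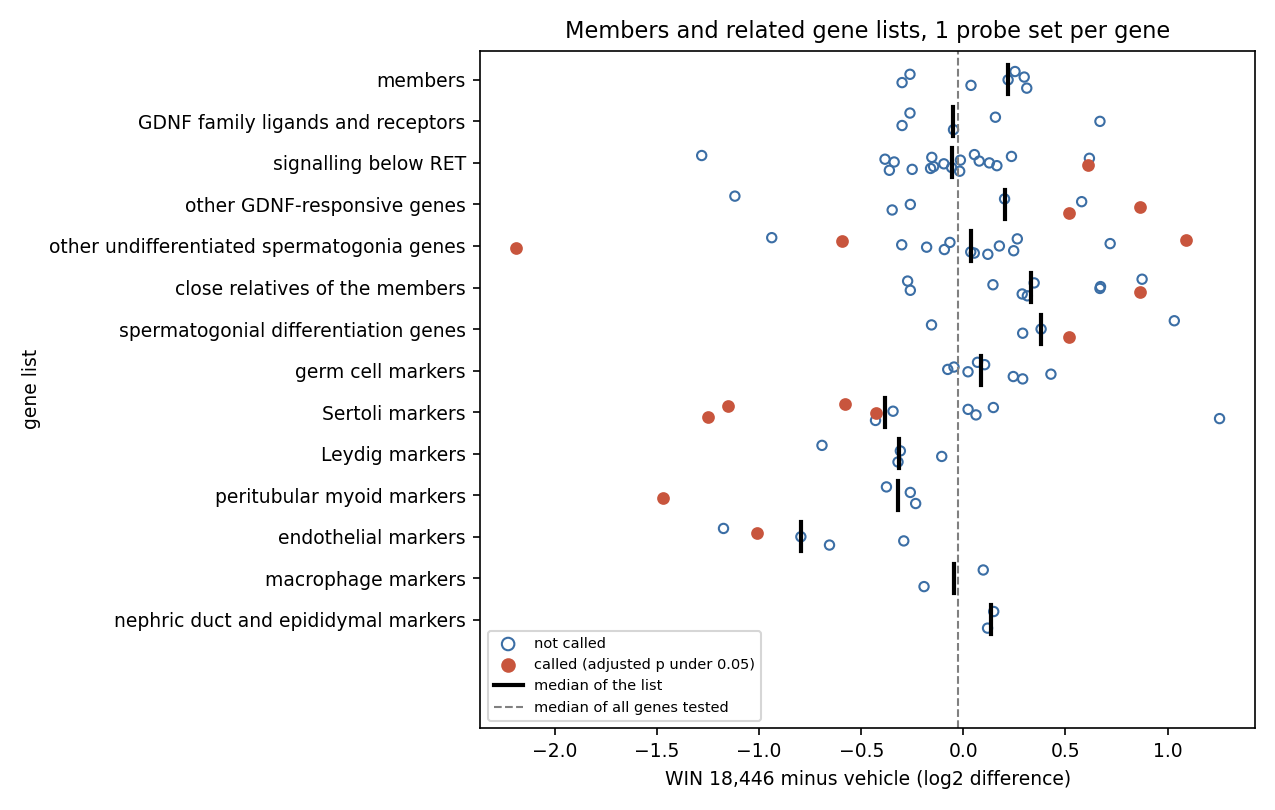
Difference in log2 level, WIN 18,446 minus vehicle (x axis), of each tested gene in the member list and in the related lists with at least 2 tested genes (y axis). Filled points are called and open points are not, black bars are list medians and the dashed line is the median of all genes tested (-0.02). No member is filled, and Erbb3 (-2.19) is the lowest point.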

How the data were processed

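Total RNA (about 100 ng per sample) was amplified to cDNA, and 3.75 µg of it was labelled and hybridised to 430 2.0 arrays for the mouse genome from Affymetrix, per the labels' protocols. The deposited table holds log2 levels per probe set that the authors had normalized between arrays. RMA and GCRMA stand in the submitters' processing notes, which do not say which of them made the table, and the log2 scale was read from the values. RMA-type summaries can distort the size of differences near the background, and how far was not tested here.

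The 64 control probe sets were left out. Of the other 45037, the 20895 with a mean of at least 5 were fitted with limma 3.58.1 in R 4.3.3 (lmFit, eBayes with a variance trend, two-sided, Benjamini-Hochberg over all tested, 2 residual and 3.19 prior degrees of freedom). The fit was tested on simulated data. No exact permutation test was run, since with 2 arrays a group its p is at least 0.333. A gene in a list is represented by its brightest tested probe set, whatever the suffix of its name. Genes were named through the annotation that GEO holds for the platform, in which 34945 probe sets have 1 symbol, 932 several and 9160 none. The genes named are all members and, of each list, those called, or the 2 with the largest difference where none was. Amh, Pax8, Emx2, Tdrd1, Kit, Stra8, Sox10, Gdnf, Gfra4, Src, Tspan8 and genes named as at background were added after their values were seen. So were Sohlh1, Sohlh2 and Tie1. Members and lists were chosen with earlier results of these data known. Alternatives changed the filter, normalization, moderation, replicate block, arrays, probe sets per gene and threshold.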

Additional observations from a re-analysis of the deposited data

How the results depend on the processing

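No alternative called a member probe set at an adjusted p under 0.05, with 0 of 7 to 0 of 20 tested. At an adjusted p under 0.10, 1 was called, Zbtb16 on 1439163_at. With 1 array left out the count was 0 each time, with 0 to 2 at an unadjusted p under 0.05. The count over all probe sets was 1083, 3 without a level filter, 372 without a variance trend, 2216 at an adjusted p under 0.10, and 0 to 1398 with 1 array left out (664 without treated array 1). When an array was left out, the remaining one of its group was assumed to vary like the other group. Changes of filter, moderation, replicate block or probe sets per gene leave a difference as it is. Only another scaling or a left-out array could change its sign, so the count that kept direction overstates the stability. Of 138 member differences recomputed over all settings, 131 kept their direction and 7 changed sign: Etv5 on 1428142_at (-0.0011 with equal array medians, -0.11 to 0.18 with 1 array left out), Etv5 on 1450082_s_at (0.010 after a second quantile normalization, -0.51 to 0.43), Bcl6b (-0.012 to 0.63) and Id4 on 1450928_at (-0.093 to 0.24). The cause was not tested. The arrays share replicate numbers only: same-numbered arrays did not deviate together (correlation 0.01). With the replicate block 1467 probe sets and 0 member probe sets were called. Readings near 2.22 carry no difference, which covers Egr4, Neurog3 and Gfra1 on 1450440_at.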
